A study of Drosophila melanogaster with 3 samples.

Results

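The microRNA (miRNA) precursor genes of Drosophila melanogaster were set against the binding map of the homeobox transcription factor NK7.1 in embryos. A gene was a member when the Ensembl release 115 annotation of the fly genome gave it a transcript of the biotype pre_miRNA, which is the hairpin that is cut to the mature miRNA. Of 262 such genes, 260 lay on the 6 main chromosome arms and were scored, among 17683 genes in all there. A hairpin that overlapped another gene on either strand was called intragenic and any other hairpin intergenic, which gave 212 intragenic and 48 intergenic members. The rule for members used no binding value, but the members were chosen with earlier results of these data known.

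Chromatin immunoprecipitation with sequencing (ChIP-seq) had been done in 3 biological replicates of 1 group. Each was a mixed-sex collection of whole embryos aged 0 to 24 hours from a transgenic line that stably expressed NK7.1 with GFP at its C-terminus. The tagged protein was precipitated with an anti-GFP antibody from sonicated chromatin with a fragment size range of 200 to 800, and all replicates share the transgene. Whole embryos mix all cell types and stages, so a peak does not say in which cells the site was bound, and input or untagged chromatin was not analysed here.

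A miRNA is a short RNA that leads the Argonaute protein AGO1 to messenger RNAs, which are then translated less or degraded. Its gene is usually transcribed by RNA polymerase II, either from a promoter of its own or as part of the intron or exon of a host gene, so the start of the primary transcript can lie far from the hairpin. The nuclear enzyme Drosha with its partner Pasha cuts the hairpin out, Dicer-1 cuts it again, and the seed, bases 2 to 8 of the mature miRNA, sets most of its target choice. In fly embryos miRNAs are known for clearing maternal messenger RNA, limiting cell death, and shaping muscle, neurons and segments.

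The authors deposited 1 peak list for each replicate, 1 list from the pooled libraries and 1 list thresholded by the irreproducible discovery rate, called the reproducible set here. The reproducible set held 2475 peaks, the pooled list 26951, and the replicate lists 25801, 30000 and 30000. A member was scored by the distance from its hairpin to the nearest peak summit, with 2 kb as the limit. Each replicate was also scored on its own with its strongest 2475 peaks, called its top peaks. The lists hold no read counts, so depth is unknown, and all intervals below are exact Clopper-Pearson 95% intervals that cover the counting of hairpins only. Hairpins of 1 cluster share summits and are not independent.

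The genes below had the strongest reproducible peaks near them among those whose sequence is shown. Both mature arms are printed from the RefSeq annotation of the Release 6 genome, 5′ to 3′, with the seed in capitals. The seed ties mir-279, mir-92a and mir-275 to relatives, which are described further on. The other genes printed shared no seed with another member.
mir-279 3p: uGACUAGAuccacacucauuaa
mir-279 5p: aGUGGGUGgggguccaguguuucaca
mir-92a 3p: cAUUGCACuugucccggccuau
mir-92a 5p: aGGACGGGaaggugucaacguu
mir-282 5p: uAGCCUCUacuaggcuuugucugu
mir-282 3p: aCAUAGCCuauaagagguuagg
mir-9378 5p: aGUGGAGUgagaccucgaguucgg
mir-9378 3p: gAACGGGAguuuccuccauugg
mir-9377 5p: cGCUCUUUcucucuaucuggcc
mir-9377 3p: cUUGAUGGggagaaggagagg
bantam 3p: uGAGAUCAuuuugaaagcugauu
bantam 5p: cCGGUUUUcgauuugguuugacu
mir-966 5p: uGUGGGUUgugggcugugugg
mir-966 3p: cCGCCAGUugauaacccccagc
mir-275 3p: uCAGGUACcugaaguagcgcgcg
mir-275 5p: cGCGCUAAucagugaccggggcu
mir-305 5p: aUUGUACUucaucaggugcucug
mir-305 3p: cGGCACAUguugaaguacacuca

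The DNA under the summits is shown for 4 of these peaks as 101 bp centred on the summit, on the plus strand of dm6. Capitals mark the word TAATTG or TAATTA, a core that many homeodomains bind, and the word GAGAG, the core bound by the GAGA factor Trl, each on either strand (CAATTA is TAATTG and CTCTC is GAGAG on the other strand). The windows at mir-279 and mir-92a hold none of the 3 words. Of the windows of these genes not shown, those at mir-282, mir-9378, mir-966 and the peak of mir-275 and mir-305 also hold none. The weaker mir-9377 summit, also not shown, holds GAGAG.
mir-279 summit, chr3R:29214404-29214504: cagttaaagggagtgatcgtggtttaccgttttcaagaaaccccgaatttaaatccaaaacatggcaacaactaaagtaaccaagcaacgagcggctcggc
mir-92a summit, chr3R:25646966-25647066: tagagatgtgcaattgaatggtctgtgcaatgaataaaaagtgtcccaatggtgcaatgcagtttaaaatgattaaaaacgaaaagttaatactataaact
bantam summit, chr3L:640733-640833: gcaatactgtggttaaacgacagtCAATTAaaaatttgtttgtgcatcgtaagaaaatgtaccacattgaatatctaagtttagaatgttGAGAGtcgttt
mir-9377 stronger summit, chrX:12666533-12666633: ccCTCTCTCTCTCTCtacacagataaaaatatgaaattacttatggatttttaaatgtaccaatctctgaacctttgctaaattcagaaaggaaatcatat

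NK7.1 summits of the reproducible set lay within 2 kb of 22 of the 260 miRNA genes, or 8.46% (interval 5.38 to 12.5). Over all bases of the 6 arms, 6.58% lay within 2 kb of such a summit. That share falls inside the interval of the hairpins at this limit. At 5 kb, in replicates 2 and 3 and in the pooled list, given further on, the share of bases lies below the interval. Those intervals count hairpins that share a summit as independent. The same 2 kb limit was met by 17.9% of the 19253 start sites of protein-coding transcripts, which lies above it. For whole genes with 2 kb added at each end, 20.9% of the 17423 other genes and 22.6% of the protein-coding genes held one. Whole genes are longer than hairpins, so these shares are not directly comparable with that of the hairpins. Among other short noncoding genes, 42 of 290 transfer RNA genes (14.5%) and 90 of 269 small nucleolar RNA genes (33.5%) had a reproducible summit within 2 kb, both above the interval of the miRNA genes.

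The 22 members belonged to 20 of 203 genomic clusters, a cluster being hairpins of the same strand less than 10 kb apart. A total of 79 members sat in clusters of 2 or more, and the largest cluster held 12. By arm, 5 of 56 members on 2L, 7 of 55 on 2R, 3 of 31 on 3L, 5 of 58 on 3R, 2 of 58 on X and 0 of 2 on 4 had a reproducible summit. Their intervals overlap, X having the lowest share among the large arms at 3.45% (interval 0.420 to 11.9).

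In each replicate alone, 16, 26 and 27 miRNA genes had a top summit within 2 kb, a mean of 23 ± 6.08 (SD, n = 3) or 8.85 ± 2.34%. Replicate 1 was the lowest. The arm bases within 2 kb of a top summit were 6.52%, 6.48% and 6.56% in replicates 1, 2 and 3, so replicate 1 fell below its background and the other 2 above theirs. The interval of the hairpins was 3.56 to 9.80 in replicate 1, which holds the share of bases, and 6.64 to 14.3 in replicate 2 and 6.96 to 14.7 in replicate 3, which lie above it. These intervals treat hairpins as independent, but some share a summit. Such were mir-281-1 and mir-281-2 in replicate 2, and mir-275 with mir-305 and mir-310 to mir-313 in replicate 3. Whether the intervals would still lie above the share of bases with shared summits counted once was not tested. Among other genes the shares were 20.7%, 21% and 21.2% in replicates 1, 2 and 3. Other genes were scored whole with 2 kb at each end, here and in the comparisons that follow in this paragraph. Their shares are therefore not directly comparable with those of the shorter hairpins. A total of 10 miRNA genes (3.85%) had a top summit in all 3 replicates, against 14% of other genes scored whole. The share of arm bases was not taken for this count. In the pooled list, which reaches far below the reproducible set, 145 miRNA genes (55.8%, interval 49.5 to 61.9) had a summit within 2 kb, against 76.4% of other genes and 45.8% of arm bases, the share of bases lying below the interval.

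**Figure D1:**
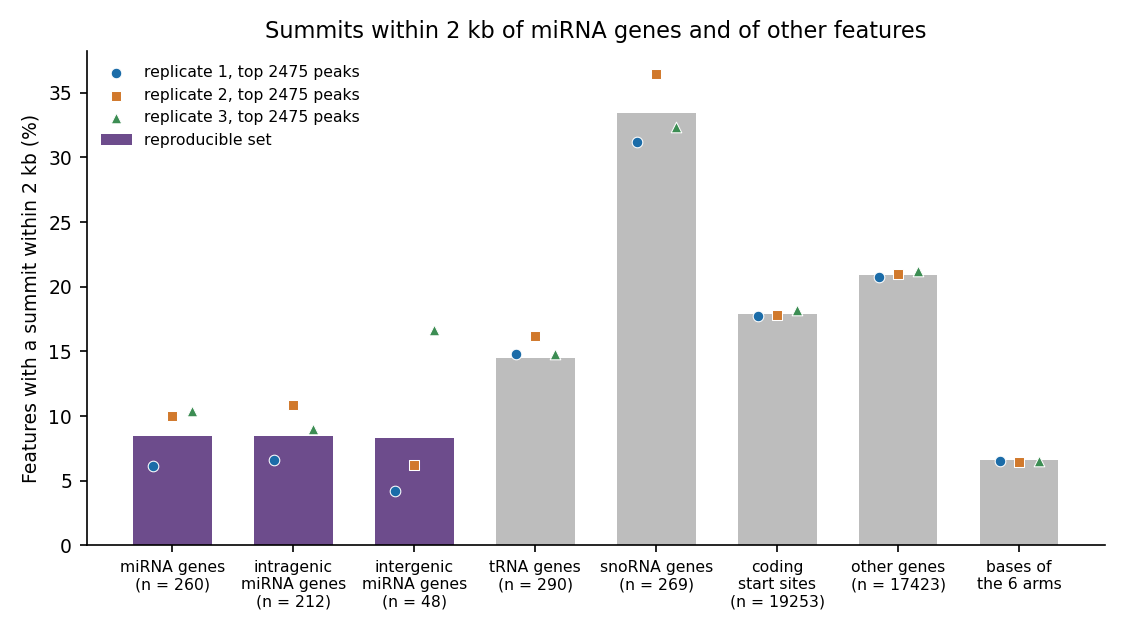
Share (%) of features with a summit within 2 kb, bars for the reproducible set and points for the top 2475 peaks of each replicate; miRNA genes are purple, and transfer RNA genes, small nucleolar RNA genes, protein-coding start sites, all other genes (whole gene plus 2 kb at each end) and arm bases are grey. The bar of all miRNA genes stands at 8.46%, near the 6.58% of arm bases, and the points of intergenic miRNA genes spread most, reaching 16.7% in replicate 3.

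Of the 212 intragenic hairpins 18 had a reproducible summit within 2 kb (8.49%, interval 5.11 to 13.1), against 4 of the 48 intergenic hairpins (8.33%, interval 2.32 to 20.0). The intergenic members with a summit were mir-305, mir-955, mir-2496 and mir-4981. The share of intragenic hairpins with a top summit was 6.60%, 10.8% and 8.96% in replicates 1, 2 and 3, and that of intergenic hairpins was 4.17%, 6.25% and 16.7%. The difference, intragenic minus intergenic, was 2.44, 4.60 and -7.70 percentage points, with a mean of -0.223 ± 6.57 (SD, n = 3; exact paired permutation test, two-sided, p = 1, the smallest this design allows being 0.25). The difference changed sign between replicates and was smaller than their spread. Replicate 3 alone turned it, and there mir-310, mir-311, mir-312 and mir-313, 4 intergenic hairpins of 1 cluster, all counted through 1 summit 1121 to 1559 bp away.

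Within the intragenic members, hairpins in a noncoding host on the same strand had the highest share, with 6 of 47 (12.8%, interval 4.83 to 25.7). Hairpins in a protein-coding host on the same strand had 11 of 138 (7.97%, interval 4.05 to 13.8), and hairpins with a gene only on the opposite strand had 1 of 27 (3.70%), which was mir-9379. The intervals of these classes overlap. Replicates gave 6, 7 and 8 noncoding-host hairpins (14.9 ± 2.13%, SD, n = 3) and 5 of them in all 3, and 8, 15 and 11 coding-host hairpins (8.21 ± 2.54%), with 3 in all 3. All 11 coding-host members with a reproducible summit lay in introns, of 100 intronic hairpins.

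The members were also divided by nearness to a protein-coding start site. Of 110 hairpins with such a start within 2 kb, 15 had a reproducible summit (13.6%, interval 7.84 to 21.5), against 7 of the 150 without one (4.67%, interval 1.90 to 9.38). Arm bases showed the same split, with 13.8% of the bases near a protein-coding start and 3.01% of the bases away from one within 2 kb of a reproducible summit. In the pooled list the shares were 72.7% of hairpins near a start and 43.3% of hairpins away from one, and for arm bases 67.9% near and 34.9% away. On each side of the split the reproducible share of bases lies inside the interval of the hairpins. In the pooled list it does so near a start (63.4 to 80.8) and lies below the interval away from one (35.3 to 51.7). Arm bases, here and in the other comparisons, include long stretches without a summit. Arm positions lay up to 6076112 bp from a reproducible and 1419174 bp from a pooled summit, and hairpins up to 3524330 and 432448 bp. The part of such stretches in the shares was not tested.

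Among members with a reproducible summit, those away from protein-coding starts had top summits in more replicates. All 7 of these members with a reproducible summit, which were bantam, mir-8, mir-279, mir-282, mir-375, mir-9377 and mir-9378, had a top summit in all 3 replicates, against 3 of the 15 near a start, which were mir-92a, mir-955 and mir-4981. At mir-375 the top summits were different peaks: its reproducible peak ranked 2136, 3844 and 2883 in replicates 1, 2 and 3 and was a top peak of replicate 1 alone. Peak strength differed as well. Of the 7, all but mir-375 (rank 2286 in the reproducible set) had a peak ranked 1191 or better there. Of the 15, only mir-4981 (rank 166) and mir-92a (rank 176) had one, so the contrast was not separated from peak strength. The mean share over replicates was 6.00 ± 0.667% for hairpins away from a start and 12.7 ± 4.81% for hairpins near one (SD, n = 3). Among the 48 intergenic hairpins, 4 of the 24 near a start had a reproducible summit and 0 of the 24 away from one (interval 0 to 14.2%).

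The strongest peak near a miRNA gene was at mir-279. This miRNA is known to limit the formation of carbon dioxide sensing neurons and to act in egg chamber cell migration. Its hairpin (FBgn0262448, chr3R:29215585-29215684, plus strand) lies in the noncoding gene lncRNA:CR31044, and the peak at chr3R:29214282-29214596 had its summit 1131 bp upstream of the hairpin and 108 bp upstream of that gene's start. The deposited signal value, the peak caller's own score, was 641 in the reproducible set, rank 37 of 2475. In the replicates it was 236, 192 and 212, with ranks 34, 38 and 52. Replicate scores are on the scale of each list, and the ranks show that every collection placed this peak among its strongest. The other hairpin of the cluster, mir-996, lay 2730 bp from the same summit and so outside the limit.

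At mir-92a (FBgn0262411, chr3R:25646506-25646600, plus strand), a miRNA known from neural stem cells and from leg trichome patterning, the peak lay in an intron of the host jigr1. It spanned chr3R:25646806-25647225, with its summit 416 bp downstream of the hairpin and 230 bp upstream of an internal jigr1 start. The signal value was 344 (rank 176), and 97.2, 116 and 121 in replicates 1, 2 and 3 (ranks 313, 138 and 190). All replicates held it within their top peaks. Its partner in the same host, mir-92b, was 4382 bp from the nearest reproducible summit.

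At mir-282 (FBgn0262368, chr3L:3251022-3251118, plus strand), which is reported to act on the adenylate cyclase rutabaga, the peak chr3L:3249995-3250414 lay in an exon of the noncoding host lncRNA:CR43626. Its summit was 817 bp upstream of the hairpin and 389 bp upstream of one of the host's annotated starts. The signal value was 304 (rank 233), and 119, 97.3 and 92.4 in replicates 1, 2 and 3 (ranks 195, 209 and 344). The spread of ranks was narrow beside that of weaker peaks below.

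The growth miRNA bantam (FBgn0262451, chr3L:642208-642288, plus strand), which represses the cell death gene hid, had the peak chr3L:640573-640992 in an exon of its noncoding host lncRNA:CR43334. The summit was 1425 bp upstream of the hairpin and 1069 bp downstream of the host's start. The signal value was 174 (rank 774), and 77.0, 31.7 and 68.0 in replicates 1, 2 and 3. Replicate 2 placed it low, at rank 2058, against 508 in replicate 1 and 662 in replicate 3. A second and stronger reproducible summit, with a signal value of 202, lay 2093 bp downstream of the hairpin's 5′ end, just past the limit.

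The miR-200 relative mir-8 (FBgn0262432, chr2R:16831432-16831518, plus strand), known for its roles in growth and in neurons through the corepressor Atrophin, had a weaker peak at chr2R:16830320-16830739. The summit lay 902 bp upstream of the hairpin and 159 bp upstream of a start of its noncoding host lncRNA:CR43650. The signal value was 138 (rank 1191), and 41.7, 33.6 and 57.8 in replicates 1, 2 and 3. At mir-279, mir-282 and mir-8, then, the nearest start was one of the noncoding host itself, 108 to 389 bp downstream of the summit.

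The intergenic mir-4981 (FBgn0263572, chr2R:8015249-8015343, plus strand) had the second strongest member peak, chr2R:8014300-8014518, with a signal value of 351 (rank 166). It scored 95.9, 97.4 and 156 in replicates 1, 2 and 3 (ranks 321, 206 and 107). The summit lay 838 bp upstream of the hairpin, but the nearest start was that of CG14762, 656 bp away on the opposite strand.

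The peaks at mir-9378 and mir-9377 were far from any start. At mir-9378 (FBgn0283551, chr2L:10751877-10751938, minus strand), in an intron of CG17124, the summit was 149 bp upstream of the hairpin, the closest of all, and 4238 bp from the nearest start. The signal value was 274 (rank 302), and 98.6, 91.2 and 78.6 in replicates 1, 2 and 3. At mir-9377 (FBgn0283559, chrX:12665217-12665268, plus strand), in an intron of Tis11, there were 2 reproducible peaks. The stronger one, chrX:12666373-12666792, had a signal value of 190 (rank 634), and 87.8, 57.7 and 50.5 in replicates 1, 2 and 3. Its summit was 1315 bp from the hairpin and 6049 bp from the nearest start. The other summit was 302 bp from the hairpin with a signal value of 105 (rank 1953), and it ranked 1496, 2230 and 3249 in replicates 1, 2 and 3. The stronger summit was thus within the top peaks of every replicate and the weaker one was missed by replicate 3.

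Lower in the list the replicates parted. At mir-966 (FBgn0262317, chr2L:6045627-6045713, minus strand), in the host Pfas, the summit lay 61 bp upstream of a Pfas start with a signal value of 124 (rank 1450). It ranked 4242, 1355 and 782 in replicates 1, 2 and 3, so replicate 1 did not reach it. The peak chr2L:7425178-7425597, in an exon of lncRNA:CR43857, served mir-275 (FBgn0262453, chr2L:7425795-7425892) at 407 bp and mir-305 (FBgn0262458, chr2L:7425972-7426044) at 584 bp, both on the plus strand. Its signal value was 122 (rank 1498), and 33.4, 27.5 and 57.3 in replicates 1, 2 and 3, and replicate 3 alone held it among its top peaks. The pair shows how the grouping can part neighbours: mir-275 overlaps the noncoding gene and counts as intragenic, and mir-305 lies past its end and counts as intergenic.

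The remaining members with a reproducible summit had signal values from 94.7 to 120. These were mir-281-1 and mir-281-2 in an intron of Oda with 2 peaks between them (120 and 106), mir-2493 (119), mir-955 (112), mir-2496 (109), mir-4918 (109), mir-4975 (101), mir-9379 (99.0), mir-375 (96.6), mir-308 (95.5) and mir-1012 (94.7). The summit nearest to mir-308, which lies in an intron of the ribosomal protein gene RpS23, was 8 bp upstream of an RpS23 start and 722 bp from the hairpin. One of the peaks at mir-281-2 lay 93 bp upstream of SmD3, which encodes a splicing factor and runs on the opposite strand. The summit at mir-1012 in the host Lerp had the support of no replicate's top peaks.

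**Figure D2:**
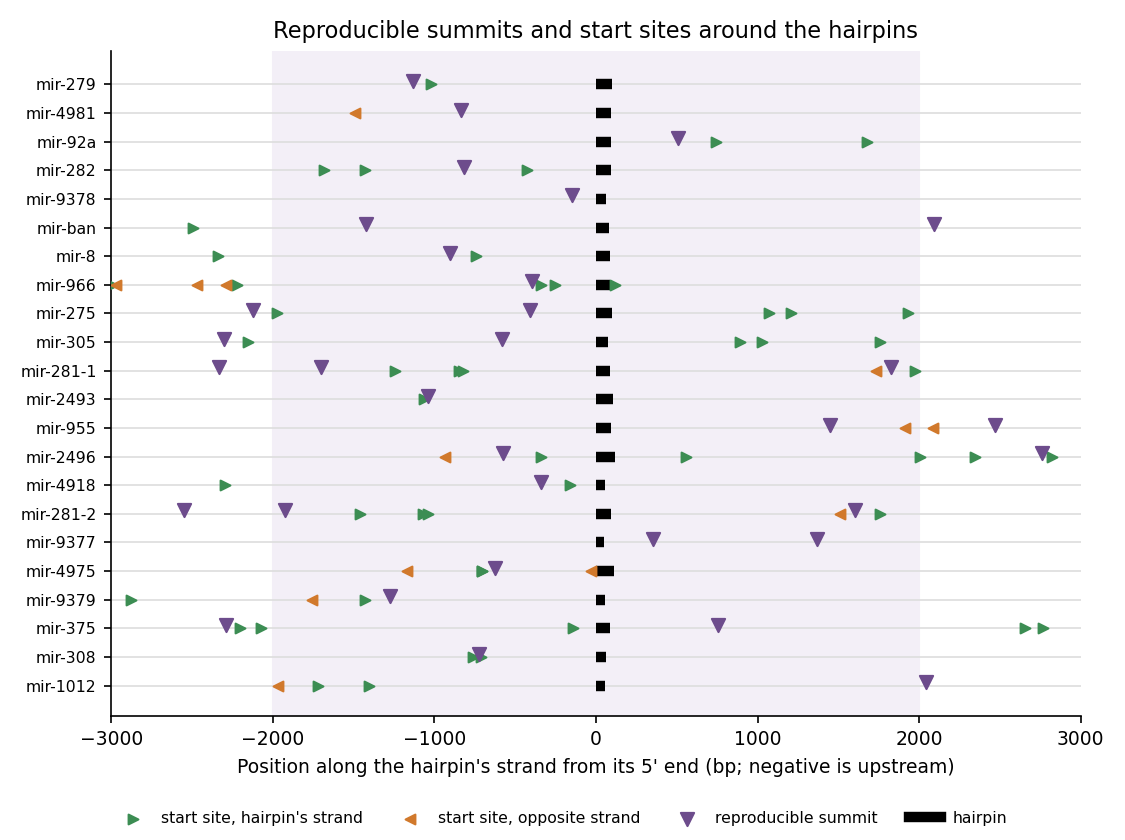
Reproducible summits (purple), annotated start sites on the hairpin's strand (green) and on the opposite strand (orange) around each of the 22 hairpins, as distance in bp from the hairpin's 5′ end along its strand; the shaded band is 2 kb on either side and genes are ordered by the signal value of the nearest peak. At mir-279, mir-282 and mir-8 a green start site lies just downstream of the summit, as it does at some hairpins in coding hosts, among them mir-966, mir-4918 and mir-308. At mir-9378 and mir-9377 no start site lies within 3000 bp.

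In all, 22 distinct peaks were counted for the 22 members. Their median signal value was 120, against 135 for all 2475 reproducible peaks, and 8 of the 22 ranked within the strongest 1237. The whole set ran from 92.5 to 1837 in signal value and the 22 peaks from 94.7 to 641. Top peaks of 3, 2, 1 and 0 replicates overlapped 9, 7, 5 and 1 of the 22. Of the 22 summits 16 (72.7%) lay within 1 kb of a start of any gene, against 1620 of all 2475 (65.5%).

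**Figure D3:**
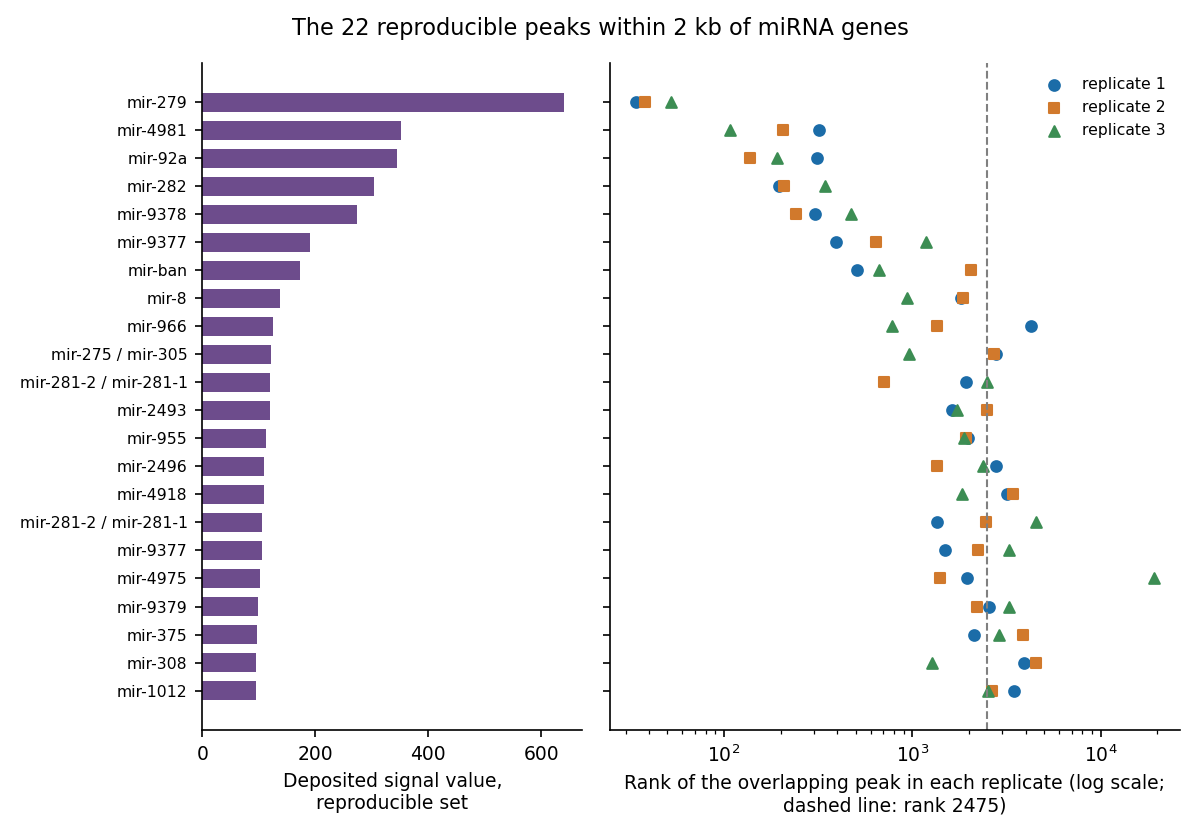
Left, the deposited signal value of each of the 22 reproducible peaks (bars from 0); right, the rank of the overlapping peak in each replicate on a log axis, with a dashed line at rank 2475. The peaks of mir-279 to mir-8 lie left of the line in all 3 replicates, and of the peaks below them only that of mir-955 does.

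A further 17 members had a top summit in at least 1 replicate and no reproducible one, and none of them in all 3. In replicate 2 or 3 these included mir-276a, mir-277, mir-278 and mir-995. At mir-14, a miRNA known for limiting cell death and fat storage, replicate 1 and replicate 3 had top summits at 951 and 1814 bp and replicate 2 had its nearest at 3821 bp. Around the limit, the members just inside were mir-1012 (1983 bp), mir-281-1 (1704 bp), mir-281-2 (1515 bp), bantam (1425 bp) and mir-955 (1351 bp). Those just outside were mir-2495 in qtc (2252 bp), mir-4982 in Hs3st-A (2340 bp), mir-998 in E2f1 (2565 bp), mir-9383 in CG12241 (2661 bp) and mir-9373 in CG6231 (2683 bp). The outside members include peaks as strong as those inside, with signal values from 109 to 184.

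Most hairpins were far from any reproducible summit. The median distance was 20671 bp over all 260, 17495 bp for intragenic and 39185 bp for intergenic hairpins, against 13113 bp for protein-coding starts and 29357.5 bp for positions taken every 1000 bp along the arms. Within 5 kb a reproducible summit was found for 22.3% of all hairpins (interval 17.4 to 27.9), 24.5% of intragenic ones (interval 18.9 to 30.9) and 12.5% of intergenic ones (interval 4.73 to 25.2), against 14.5% of arm bases. The share of bases lies below the intervals of all and of intragenic hairpins and inside that of intergenic ones. Only 6 hairpins (2.31%) had a reproducible summit within 500 bp, against 10.6% of protein-coding starts and 1.80% of arm positions. No reproducible summit lay inside a hairpin, and in the pooled list summits fell inside mir-184, mir-986 and mir-4959. The intergenic median falls among the hairpins of 2 clusters, and how far it depends on them was not tested. The mir-972 to mir-979 cluster on X, whose 10 intergenic hairpins lay 38864 to 46742 bp away, and the cluster of 7 from mir-310 to mir-992, at 38084 to 39649 bp, together hold 17 of the 48 hairpins.

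**Figure D4:**
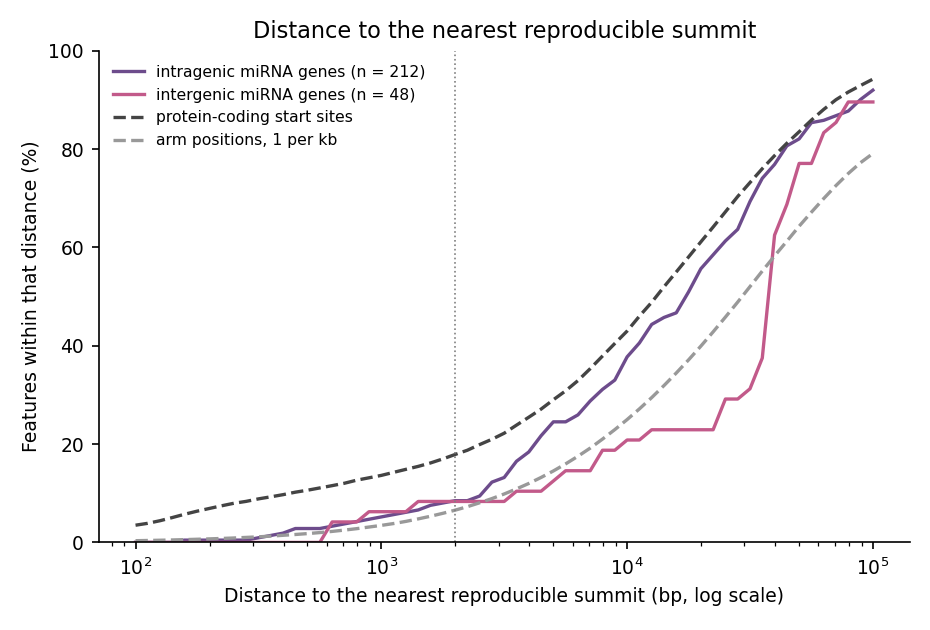
Cumulative share (%) of intragenic and intergenic miRNA genes, protein-coding start sites and arm positions (1 per kb) within a given distance (bp, log axis) of the nearest reproducible summit; the dotted line marks 2 kb. Both groups of hairpins run close to the arm positions up to 2 kb, where they reach 8.49% and 8.33%, and the intergenic curve climbs steeply near 39185 bp, its median.

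By known role, the lists of miRNAs differed in count but each is small. The background for each is 8.46% of all members for a reproducible summit and 55.8% for a pooled one. The lists were chosen with earlier results of these data known. The 8 genes of the mir-309 cluster (mir-309, mir-3, mir-286, mir-4, mir-5, mir-6-1, mir-6-2 and mir-6-3), which clears maternal messenger RNA at the onset of zygotic transcription, had no reproducible, pooled or top replicate summit within 2 kb. Their nearest reproducible summit lay 28559 to 29549 bp away. The 4 miRNAs of the Hox complexes, mir-10, mir-iab-4, mir-iab-8 and mir-993, had a reproducible summit no nearer than 13183 bp. Each had only a weak pooled summit within 2 kb, with signal values from 30.0 to 36.9 against 92.5 for the weakest reproducible peak. The hairpins mir-iab-4 and mir-iab-8 lie on opposite strands of the same site and share theirs.

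Of 14 miRNAs of growth and cell survival, bantam and mir-308 had a reproducible summit and 12 had a pooled one, against 55.8% of all members. The others were mir-14, mir-278, mir-11, mir-184 and the mir-2 and mir-13 genes of the same family (mir-2a-1, mir-2a-2, mir-2b-1, mir-2b-2, mir-2c, mir-13a, mir-13b-1 and mir-13b-2). Some of these shared a pooled summit, as mir-2a-1, mir-2a-2 and mir-2b-2 did, and mir-2c, mir-13a and mir-13b-1. Of the 5 timing miRNAs none had a reproducible summit. In the let-7 complex let-7, mir-100 and mir-125 were 118171 to 119062 bp away, and mir-34 and mir-277 were 13197 and 12283 bp away. Of the 5 miRNAs listed under muscle and mesoderm only mir-92a, described above by neural stem cells and leg trichomes, had a reproducible summit. The muscle miRNA mir-1 was 39678 bp from the nearest one, and mir-133, mir-92b and mir-9a were also outside.

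Of 17 miRNAs of neurons and sense organs, mir-8 and mir-279 had a reproducible summit, both in all 3 replicates. The neuronal mir-124 was 52026 bp away. The other 14 were mir-7, mir-996, mir-263a, mir-263b, mir-210, mir-276a, mir-276b, mir-315, mir-137, mir-190, mir-219, mir-1000, mir-957 and mir-980, of which mir-957 was the farthest at 223414 bp. The 4 hairpins mir-310 to mir-313 had the same pooled summit in the window but no reproducible one. Among 5 metabolic miRNAs, mir-275, mir-305 and mir-375 had one and mir-33 and mir-278 did not, but the first pair shares a peak, so this is 2 peaks for 3 genes. Replicates counted 1, 3 and 3 of these 5, the 3 in replicate 2 being mir-275, mir-278 and mir-375 and the 3 in replicate 3 the genes with a reproducible summit.

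Of the 5 groups of genes that shared a seed and held a gene near a reproducible summit, 4 had a single such gene. A group was listed only because it held such a gene, and 8.46% of all members had a reproducible summit within 2 kb. The counts therefore do not show whether genes with a shared seed differ from other members. The fifth was the pair mir-281-1 and mir-281-2, neighbours in the same intron that share their summits. The seed GACUAGA of mir-279 is also that of mir-286 and mir-996, which had no reproducible summit within 2 kb. The seed AUUGCAC of mir-92a is shared with mir-92b, mir-310, mir-311, mir-312 and mir-313, which lay 4382 to 39649 bp from one. The seed CAGGUAC of mir-275 is shared with mir-306, 17836 bp from one. The seed AUCACAG is carried by 14 genes, of which mir-308 alone had a reproducible summit in the window.

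The short words at summits were counted in the 101 bp around each. TAATTG occurred at 4 of the 22 peaks near miRNA genes (18.2%) and at 235 of all 2475 reproducible summits (9.49%). TAATTA occurred at 1 of 22 (4.55%) against 172 (6.95%), and GAGAG at 5 of 22 (22.7%) against 292 (11.8%). The GC content had a median of 37.1% at the miRNA peaks and 35.6% at all summits. With 22 peaks these counts are a description, and a word in the window is not a binding site shown.

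Because the start of a primary transcript can lie far from its hairpin, the starts of the hosts were scored as well. Of 130 protein-coding hosts 41 (31.5%) had a reproducible summit within 2 kb of a start of their own, against 17.4% of all protein-coding genes. Of 34 noncoding hosts 9 (26.5%) had one, against 11.4% of all noncoding RNA genes. The noncoding hosts with one were lncRNA:CR31044 (mir-279), lncRNA:CR43626 (mir-282), lncRNA:CR43650 (mir-8), lncRNA:CR43334 (bantam), lncRNA:CR43857 (mir-275), lncRNA:CR45345 (mir-375), lncRNA:CR44206 (mir-184), lncRNA:CR45916 (mir-9a) and lncRNA:Hsromega. Hosts are also larger, with a median length of 13462 bp for coding hosts against 2166 bp for protein-coding genes, and 6465 bp for noncoding hosts against 706.5 bp for noncoding RNA genes. They have more annotated starts, with a mean of 2.19 against 1.41 for coding and 1.47 against 1.06 for noncoding genes. The part of length and of the number of starts in the difference was not tested.

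Hairpins with a reproducible summit lay nearer to their host's start at the median than hairpins without one. From the nearest upstream host start the median distance was 1041 bp for the 11 coding-host hairpins with a reproducible summit, against 3043 bp for the 125 without one that had such a start. For noncoding hosts it was 883 bp for 6 hairpins with a summit, against 2145 bp for 40 without one. Ranges overlapped widely, from 160 to 6713 bp with a summit and 3 to 118632 bp without one for coding hosts.

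The genes that make and use miRNAs were scored as whole genes, so their shares are set beside those of other genes and not of hairpins. Of 28 listed genes 15 (53.6%) held a reproducible summit by the whole-gene rule, against 22.6% of all protein-coding genes, and 14, 15 and 13 had a top summit in replicates 1, 2 and 3 (50 ± 3.57%, SD, n = 3). In 10 of them every replicate had one. Under this rule a longer gene has more room for a summit, and the part of gene length in the difference was not tested. The list was also chosen with earlier results of these data known. In the nucleus pasha, the partner of Drosha, had the highest signal value of the list (462, rank 90), but its summit was 1813 bp from its own start and nearest to the start of Mnat9. Ranbp21, the fly Exportin-5, had one 106 bp from its start (119), while drosha, Ars2, Cbp20 and Cbp80 had no reproducible one.

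Among the cytoplasmic enzymes and their partners, loqs, the partner of Dicer-1, had a signal value of 152 but its summit was nearest to CG7099. The same was true of r2d2, the partner of Dicer-2, with 310 near Herp, although its own start was 204 bp away. AGO1 had a summit 57 bp from its start (139) and its partner gw, the fly GW182, one at 220 bp (133). Neither Dicer gene, Dcr-1 or Dcr-2, nor AGO2 had a reproducible or top replicate summit. Hsp83, the fly Hsp90 that helps to load Argonaute, had one at 101 bp with a signal value of 405 in the reproducible set, and Hsc70-4 had none there.

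Of the genes for decay and end modification, the deadenylase subunits Pop2 and twin had summits 11 and 138 bp from their own starts (116 and 109). Not1 (260), Hen1 (133), Tailor (144), Tudor-SN (169) and Nbr (92.6) had theirs nearest to a start of another gene, and Dis3l2, pcm and me31B had none. The translational repressor brat had a summit 712 bp from its start (329), while mei-P26 and Fmr1 had no reproducible one. Of the 15 genes, 7 thus had the strongest summit nearest to a start of their own, which were AGO1, gw, Hsp83, Ranbp21, Pop2, twin and brat.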

How the data were processed

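The 3 replicates and the pooled libraries were deposited as narrowPeak lists on dm6, with peaks called against a control, per the listings that accompany each library's files, and dm3 lists were not used here. Versions and names of the aligner and peak caller were not given in the sources used here. Each peak's signal value is the authors' deposited score, and the deposited −log10 q-value, the authors' own, was read but not used to rank. The authors had thresholded the pooled list by the irreproducible discovery rate to obtain the reproducible set, per the same listings. Depth is unknown, since the lists hold no read counts.

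Summits were the deposited start plus the deposited offset, and coordinates were made 1-based. Hairpins and hosts came from the Ensembl release 115 annotation. Its pre_miRNA label stands on transcripts, so a gene with such a transcript was a member, and 481 entries for mature miRNAs alone were not counted as hosts. Sequences came from RefSeq for the same Release 6 assembly. Replicate peaks supported a reproducible peak when they overlapped it by at least 1 bp.

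Shares carry exact Clopper-Pearson intervals, replicate means carry the SD, and the intragenic and intergenic shares were compared by an exact paired permutation test over replicates. The peak lists of the replicates are the only measure of spread, which may be in part technical. Every miRNA gene with a reproducible summit was named, the clusters of the 10 strongest peaks were described in full, and listed role and pathway genes and the 5 members nearest the limit on each side were named. The members and lists were chosen with earlier results of these data known, and host starts and the share of arm bases at other limits were scored after the hairpins. Scoring was tested on simulated summits. Analyses used Python 3.11.15, NumPy 2.4.6, pandas 2.3.3, SciPy 1.17.1 and Matplotlib 3.10.9.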

Additional observations from a re-analysis of the deposited data

How the results depend on the processing

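The 22 genes became 14 with a limit of 1 kb, 58 with 5 kb and 8 with the strongest 1237 peaks, or 5.38%, 22.3% and 3.08% of hairpins, against 3.47%, 14.5% and 3.46% of arm bases; of these settings, only at 5 kb did the bases fall outside the hairpins' interval. The 18 intragenic genes became 11, 52 and 7 under these settings, and the 4 intergenic genes became 3, 6 and 1. With intragenic meaning a protein-coding host on the same strand, 11 of 138 intragenic and 11 of 122 other genes had a summit. Counting whole peaks gave 22, 18 and 4 genes, and 1 count per cluster gave 20, 17 and 4. The mean of 23 genes per replicate became 46.7 with 4950 top peaks and 13.7 with 1 kb, and ran from 21 to 26.5 with 1 replicate left out. The 10 genes found in every replicate became 26 with 4950 top peaks and 6 with 1 kb, and 12 to 15 were found in both remaining replicates. The intragenic minus intergenic difference of -0.223 percentage points became 1.34 with 1 kb, and ran from -2.63 to 3.52 with 1 replicate left out, turning positive without replicate 3. It stayed negative with 4950 top peaks (-0.131) and with the narrower definition (-1.35). The cause of these shifts was not tested beyond the change of window or list itself. The reproducible set cannot be rebuilt without a replicate. With 22 peaks and 48 intergenic hairpins, differences of a few hairpins were not resolvable. The intragenic and intergenic shares were paired within replicates, and no other pairing exists, as all samples belong to 1 group.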
